A study of Mus musculus with 27 samples.

Results

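The response of wild-type mouse microglia to 16 h of PolyI:C was measured in 6 of the 27 RNA libraries of the series, chosen by their labels: 3 libraries of PolyI:C-treated cells, numbered 3021, 3022 and 3023, and 3 of unstimulated cells of the same number series, 3012, 3013 and 3014. Microglia are the resident macrophages of the brain. The cells came from newborn C57BL/6J mice with no engineered allele: cortices freed of meninges were grown as mixed glial cultures, and the microglia were shaken off, plated again and rested before stimulation. The wild-type cells treated with LPS and interferon-γ (libraries 3015 to 3017), those treated with CpG (3018 to 3020), and 3 PolyI:C-treated and 3 unstimulated CB2-/- libraries (2057 to 2059 and 2048 to 2050, strain B6.Cg-Cnr2tm1Zim, made to lack cannabinoid receptor 2) were used only to set the response in context. The study asked how cannabinoid receptor 2 bears on microglial activation through Toll-like receptors. Of 23995 genes in the deposited table, 14668 had a normalised count of at least 10 in at least 3 libraries and were tested. Whether the 3 libraries of a group came from separate animals or cultures is not stated, and the p-values below rest on the spread between libraries, which may be technical.

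PolyI:C is a synthetic double-stranded RNA that imitates an intermediate of viral replication. It is recognised in endosomes by TLR3, which signals through the adaptor TRIF (Ticam1), and in the cytoplasm by MDA5 (Ifih1) and RIG-I (Ddx58), which signal through MAVS. Both routes activate interferon regulatory factors and NF-κB, and secreted type I interferon then acts back on the cells, through STAT2 and IRF9 among other factors, to switch on antiviral genes. Microglia are the main source of such cytokines in the brain, and in culture they keep only part of the gene expression that marks them in living tissue.

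The 6 libraries held mostly microglial RNA, with lower levels of markers of other cells that differed between libraries of the same group. Summed normalised counts were 8403661, 9386977 and 9473363 in the PolyI:C libraries, against 6506348, 6662554 and 6561703 in the unstimulated libraries, or about 3.56, 6.50 and 6.54 M reads against 5.95, 3.96 and 17.8 M where 1 read is taken to be worth the commonest low value of a library. Astrocyte markers averaged 1.22, 4.63 and 4.74 on the log2(value + 1) scale in libraries 3021, 3022 and 3023, against 2.83, 5.82 and 4.30 in 3012, 3013 and 3014. Fibroblast markers averaged 2.18, 5.78 and 5.66 with PolyI:C, against 1.68, 7.34 and 4.90 without. Library 3021 was thus the lowest of the PolyI:C group, and 3012 the lowest of the unstimulated group, for both cell types. Gfap, the astrocyte filament protein, was at 0, 142 and 196 normalised counts in the PolyI:C libraries and at 76.97, 463 and 96.8 in the unstimulated libraries, and 7 of the 12 tested astrocyte markers were listed at 0 in library 3021. Summed over all astrocyte markers the share of normalised counts was 0.000654 to 0.00777% with PolyI:C and 0.00413 to 0.0234% without. Of these 12 markers 0 passed the test upward and 1 downward, and of 14 fibroblast markers 1 passed in each direction. Summed over all fibroblast markers the share was 0.00439 to 0.0300% with PolyI:C and 0.0792 to 0.486% without. Those summed shares did not overlap between groups, unlike the mean levels of the same markers. In library 3012 the fibroblast markers averaged 1.68 while their sum was 5155 normalised counts. Few genes thus held most of that sum, and the share need not describe the list. Markers shared by microglia and macrophages averaged 12.05 to 12.34 with PolyI:C and 12.96 to 13.07 without. The closest 2 libraries were 3022 and 3023, and no pair agreed within sampling noise on approximate read numbers. All 6 were counted as separate libraries, which does not show that they came from separate cultures. In bulk RNA, fewer cells of a type and less RNA per cell cannot be told apart.

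**Figure D1:**
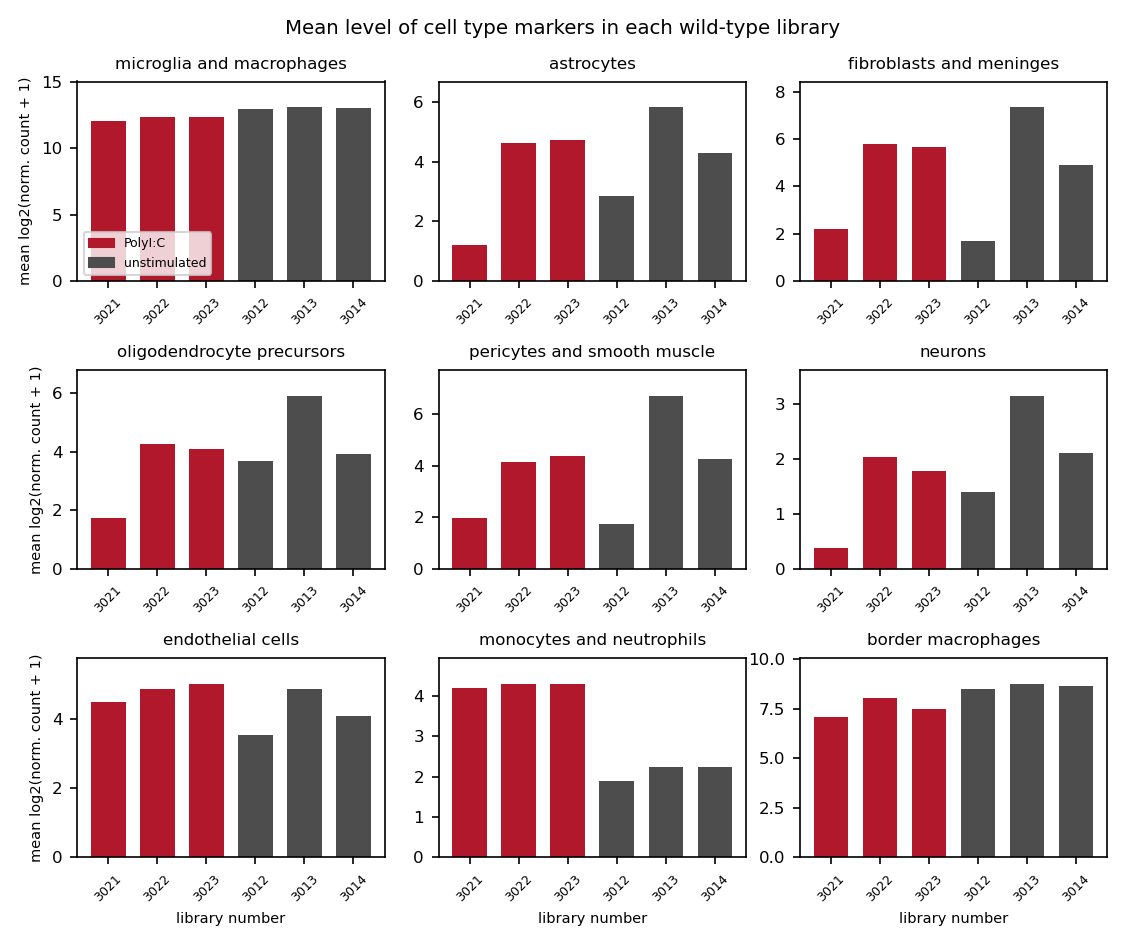
Mean level of 9 lists of cell type markers, as the mean of log2(normalised count + 1) over the list's genes, in the 3 PolyI:C libraries (left of each group) and the 3 unstimulated libraries (right). Microglia markers stand near 12 to 13 in all 6 libraries, and astrocyte and fibroblast markers are lowest in 3021 among PolyI:C libraries and in 3012 among unstimulated ones.

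PolyI:C changed a large part of the transcriptome in both directions. At an adjusted p under 0.05, 6032 genes (41.1% of those tested) were called, 3108 of them higher (21.2%) and 2924 lower (19.9%) in PolyI:C libraries. These shares of 21.2% and 19.9% are the background for the counts of gene lists below. The log2 fold change exceeded 2 for 1029 genes that rose and 1028 that fell, and exceeded 4 for 263 and 145. The median over all tested genes was -0.06. In a fit of the libraries of the 2 groups only, 4697 genes were called, 2523 higher and 2174 lower. The 3 PolyI:C libraries lay wholly above or wholly below the 3 unstimulated ones for 6878 genes (46.9%), and for 5584 of the 6032 called genes. Fold changes throughout are differences of mean log2(value + 1) with their standard error (SE), 3 libraries a group, so they understate the change of genes near 0. Where leaving out a single library moved such a change by more than 1.5-fold or ended a call, the value without that library follows.

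**Figure D2:**
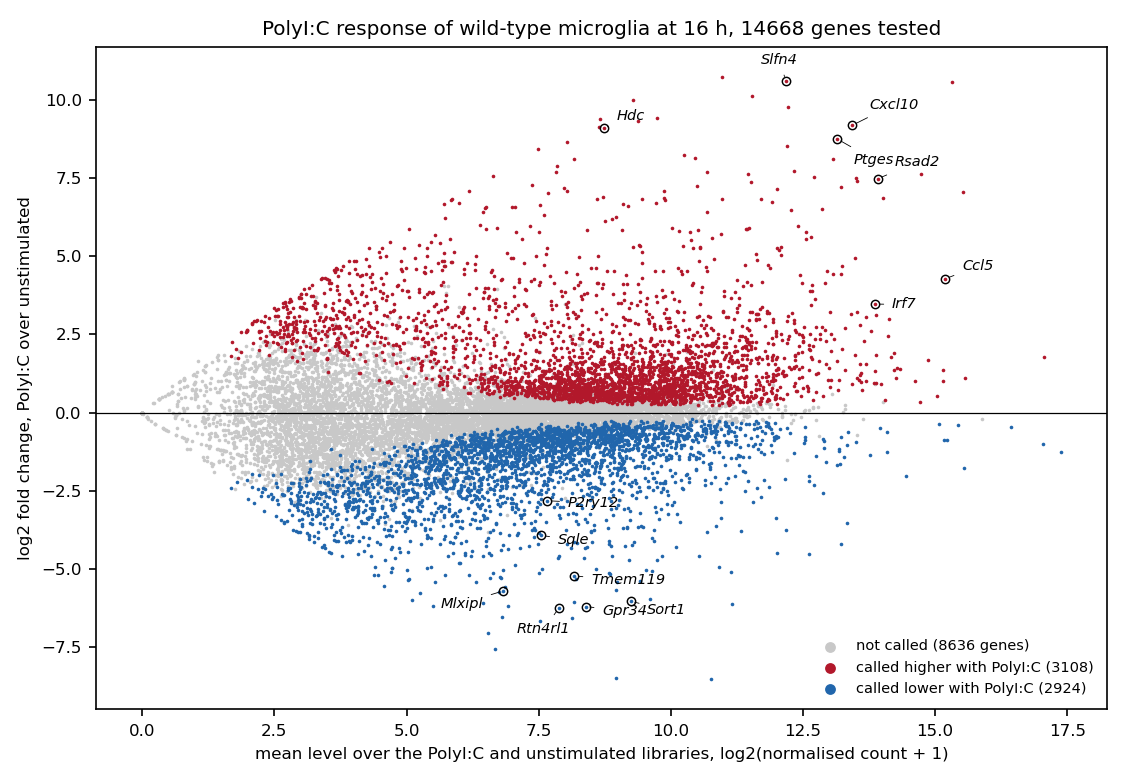
Each point is 1 of 14668 tested genes: mean log2(normalised count + 1) over the 6 libraries against the log2 fold change, PolyI:C over unstimulated. The coloured points are the 3108 genes called higher and the 2924 called lower, and 263 lie above 4 and 145 below -4.

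The genes that rose most, among those with a mean of at least 100 in the PolyI:C group, included cytokine, chemokine and secreted enzyme genes. Il6, the interleukin-6 gene, had 1152, 5421 and 5504 normalised counts with PolyI:C, against 0, 2.43 and 1.07 unstimulated, a log2 fold change of 10.73 ± 0.67 (adjusted p = 2.46e-12), and 11.47 without library 3021. Slfn4, a Schlafen gene of myeloid cells, had 13430.2, 7196 and 7072 with PolyI:C and 0, 13.2 and 11.5 unstimulated, a change of 10.62 ± 0.86 (adjusted p = 2.83e-10), and 9.37 without library 3012 and 11.28 without library 3013. Mmp13, a secreted collagenase (chr9:7272514-7283331), had 45468, 100102 and 98721 with PolyI:C and 60.1, 45.4 and 43.5 unstimulated, a change of 10.58 ± 0.40 (adjusted p = 2.47e-16). All 3 genes separated the groups completely, which the rule for naming the largest changes required. Library 3021 differed from the other PolyI:C libraries, being the lowest for Il6 and Mmp13 and the highest for Slfn4. Hdc, which makes histamine from histidine, had 597, 1006 and 932 with PolyI:C and 1.62, 0 and 0.349 unstimulated, a change of 9.08 ± 0.67 (adjusted p = 6.10e-11). Slc28a2, a concentrative nucleoside transporter, had 670.0, 908 and 801 with PolyI:C and 0, 1.10 and 0.330 unstimulated, a change of 9.13 ± 0.80 (adjusted p = 1.29e-09). Both were at or near 0 in every unstimulated library. Judged against the spread of the libraries, Il1rn and Ccl5 were among the most secure rises. Il1rn, the interleukin-1 receptor antagonist (chr2:24336853-24351494), had 45032, 57778 and 59726 with PolyI:C and 331, 255 and 235 unstimulated, a change of 7.63 ± 0.18 (adjusted p = 9.18e-20). Ccl5, a chemokine for T cells and monocytes, had 71958, 69172 and 72529 with PolyI:C and 3862, 3444 and 3700.0 unstimulated, a change of 4.28 ± 0.10 (adjusted p = 8.31e-20). For both, the lowest PolyI:C library stood more than 10-fold above the highest unstimulated one.

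The genes that fell most included an enzyme of lipid mediators, a transporter and several receptors. Hpgd, the enzyme that inactivates prostaglandins, had 7.08, 11.6 and 7.25 normalised counts with PolyI:C and 4013, 3300.1 and 3082 unstimulated, a log2 fold change of -8.51 ± 0.36 (adjusted p = 2.30e-15). Slco2b1, an organic anion transporter of microglia, had 8.31, 1.16 and 0 with PolyI:C and 820.1, 1178 and 975 unstimulated, a change of -8.50 ± 0.76 (adjusted p = 1.71e-09), and -9.38 without library 3021 and -7.77 without library 3023. Capn3, a calcium-dependent protease best known from muscle, had 1.73, 0 and 0 with PolyI:C and 181, 166 and 206 unstimulated, a change of -7.05 ± 0.92 (adjusted p = 9.03e-07). Each of the 3 was near 0 in every PolyI:C library, at 11.6 or less. Rtn4rl1, a Nogo receptor-like protein, had 9.44, 4.33 and 2.90 with PolyI:C and 377, 525 and 486 unstimulated, a change of -6.26 ± 0.46 (adjusted p = 4.94e-11). Rasgrp3, an activator of Ras-family GTPases, had 2.36, 10.1 and 4.35 with PolyI:C and 528, 533 and 589 unstimulated, a change of -6.56 ± 0.50 (adjusted p = 1.12e-10). Cxcr4, the CXCL12 receptor, had 20.02, 31.9 and 19.7 with PolyI:C and 1664, 1441 and 1464 unstimulated, a change of -5.97 ± 0.41 (adjusted p = 1.24e-11). Other large falls were those of Hgf (-6.65, -5.72 without library 3021), hepatocyte growth factor, Gpr183 (-6.18, -5.35 without library 3021, -7.23 without library 3023), the oxysterol receptor, and Sort1 (-6.03, -5.44 without library 3021), a sorting receptor.

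**Figure D3:**
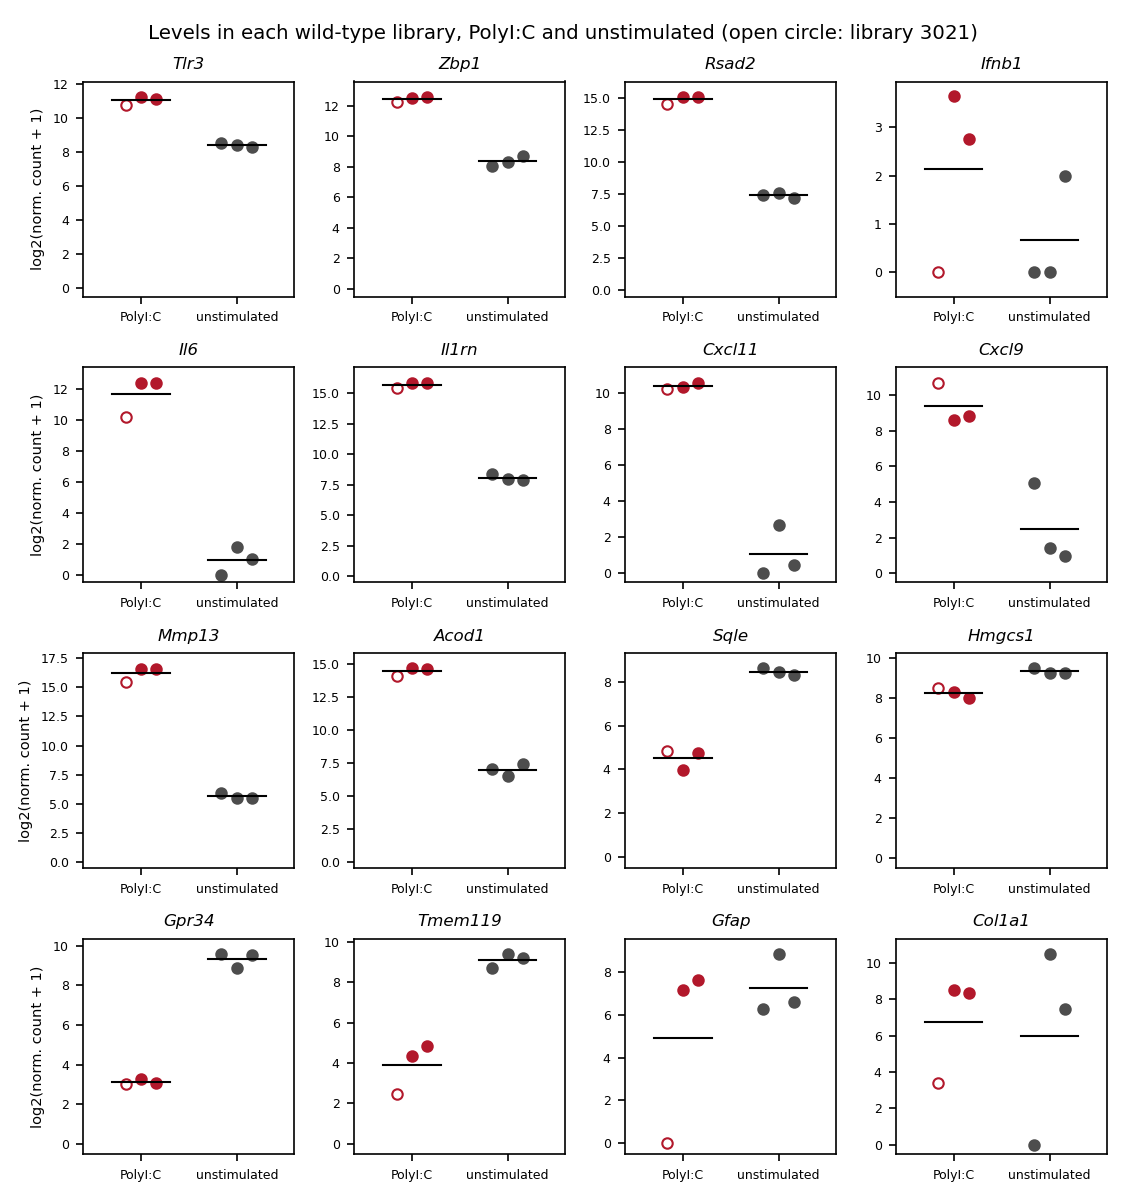
Levels, as log2(normalised count + 1), of 16 genes in the 3 PolyI:C libraries (left) and the 3 unstimulated libraries (right) of wild-type microglia. Open circles mark library 3021 and horizontal lines group means; Il1rn, Zbp1 and Rsad2 separate without overlap, Sqle, Hmgcs1 and Gpr34 are lower in every PolyI:C library, and Gfap and Col1a1 overlap.

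The receptors that detect double-stranded RNA rose, while the adaptor genes Ticam1 and Mavs went in opposite directions. Of 20 genes for double-stranded RNA sensing, 14 rose, 2 fell and 4 were not called, with a median log2 fold change of 1.28, beside 21.2% higher and 19.9% lower among all genes. Tlr3 itself had 1758, 2416 and 2205 normalised counts with PolyI:C and 361, 336 and 317 unstimulated, a change of 2.64 ± 0.21 (adjusted p = 2.68e-10). Zbp1, which binds Z-form RNA and can start cell death, had 4856, 5685 and 6105 with PolyI:C and 261, 322 and 417 unstimulated, a change of 4.07 ± 0.25 (adjusted p = 1.99e-12). Ifih1, encoding MDA5, had 4488, 6054 and 5097 with PolyI:C and 764, 351 and 622 unstimulated, a change of 3.23 ± 0.21 (adjusted p = 4.41e-12). The groups did not overlap for any of the 3. Ddx58 rose by 3.14 on the log2 scale, Dhx58 (LGP2) by 2.69, Eif2ak2 (the RNA-activated kinase PKR) by 1.96 and the kinase gene Ikbke by 2.53. TRIF, the adaptor that TLR3 uses, changed less, with Ticam1 at 271, 342 and 313 with PolyI:C and 158, 153 and 175 unstimulated, a change of 0.92 ± 0.14 (adjusted p = 1.03e-05). Mavs, the adaptor of RIG-I and MDA5, went the other way, at 251, 172 and 194 with PolyI:C and 429.9, 393 and 367 unstimulated, a change of -0.96 ± 0.14 (adjusted p = 6.57e-06). The other gene that fell was Tmem173 (STING), with a change of -0.65 ± 0.25 (adjusted p = 0.0362), and -0.62 without library 3013 (adjusted p = 0.0862), -0.52 without library 3014 (adjusted p = 0.146) and -0.46 without library 3021 (adjusted p = 0.184). Irf3, the factor that TRIF and MAVS activate first, was not called, at 0.12 ± 0.17 (adjusted p = 0.617).

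Among Toll-like receptors and their adaptors the direction was mixed, with 10 of 20 higher and 8 lower. Besides Tlr3, Tlr1 rose by 2.36 on the log2 scale and Tlr7 by 0.61, although Tlr7 reversed to -0.22 with quantile scaling. Tlr2, the lipoprotein receptor, had 1007, 1499 and 1420.4 with PolyI:C and 3448, 3478 and 3534 unstimulated, a change of -1.43 ± 0.18 (adjusted p = 6.97e-07). Tlr4, the LPS receptor, had 303, 216 and 255 with PolyI:C and 781, 788 and 758 unstimulated, a change of -1.60 ± 0.22 (adjusted p = 1.58e-06). Tlr9, the CpG receptor, had 189, 121 and 125 with PolyI:C and 359, 439 and 436 unstimulated, a change of -1.52 ± 0.21 (adjusted p = 2.17e-06). The receptors for the other agents of the study were thus lower in all 3 PolyI:C libraries, while the adaptor gene Myd88 rose by 1.93. Irak3, a brake on signalling through MyD88, had 2637, 2897 and 2969 with PolyI:C and 193, 192 and 201 unstimulated, a change of 3.85 ± 0.14 (adjusted p = 1.28e-16). With quantile scaling 7 of the 20 rose and 8 fell.

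Transcripts of the interferon genes themselves were scarce after 16 h, while most of the machinery that responds to interferon was higher. Of the interferon genes listed only Ifnb1 was tested, with 0, 11.6 and 5.80 normalised counts with PolyI:C and 0, 0 and 2.95 unstimulated, a change of 1.48 ± 0.92 (adjusted p = 0.217), and 2.14 without library 3014, 2.55 without library 3021 (adjusted p = 0.0313) and 0.72 without library 3022. The groups overlapped, and the gene was not called with all 6 libraries. Of 16 genes for interferon receptors and signalling, 11 rose and 1 fell, median 0.74. With quantile scaling 8 rose and 5 fell. Irf7, the interferon-induced factor that amplifies interferon production, had 27224, 26898 and 28196 with PolyI:C and 2459.9, 2630.4 and 2350.1 unstimulated, a change of 3.47 ± 0.09 (adjusted p = 5.59e-19). Stat2 rose by 2.63, Irf9 by 1.01 and Jak2 by 3.06. The exception was Ifngr1, a chain of the interferon-γ receptor, at 771, 569 and 559 with PolyI:C and 2456, 2098 and 2089 unstimulated, a change of -1.82 ± 0.11 (adjusted p = 1.06e-12). Brakes on the pathway rose as well, 7 of 10 tested, with 1 lower. Usp18, which removes ISG15 and blocks the interferon receptor, had 6700.3, 9298 and 9463 with PolyI:C and 247, 189 and 212 unstimulated, a change of 5.28 ± 0.15 (adjusted p = 2.74e-18). Socs3, an inhibitor of JAK kinases, had 6828, 8857 and 9520.1 with PolyI:C and 181, 314 and 291 unstimulated, a change of 5.02 ± 0.23 (adjusted p = 7.45e-15). Neither overlapped between groups.

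The antiviral effectors, the proteins that block viral entry, translation and replication, rose as a nearly uniform group. Of 44 tested, 38 rose, 4 fell and 2 were not called, and the median log2 fold change was 3.05. Together they took 3.10, 3.09 and 3.06% of all normalised counts in libraries 3021, 3022 and 3023, against 0.511, 0.387 and 0.461% in 3012, 3013 and 3014. Library 3021 did not stand apart here. Rsad2, encoding viperin, which makes a chain-terminating nucleotide, had 23688, 34273 and 34273 normalised counts with PolyI:C and 169, 193 and 148 unstimulated, a change of 7.48 ± 0.28 (adjusted p = 1.70e-16). Ifit1bl1, of the family that binds viral RNA ends, had 8666, 9574 and 9913 with PolyI:C and 12.1, 33.8 and 34.9 unstimulated, a change of 8.53 ± 0.78 (adjusted p = 2.92e-09). Bst2, encoding tetherin, which holds budding virus at the membrane, had 14368, 15141 and 15215 with PolyI:C and 1575, 1716 and 1516 unstimulated, a change of 3.22 ± 0.08 (adjusted p = 2.32e-19). None of these overlapped between groups. Isg15 rose by 5.56, Mx1 by 5.21, Oasl1 by 5.87, Oas3 by 4.17, Oas2 by 3.06 and Ifitm3 by 2.74. The 4 that fell included Ifi27, Ifitm1 and Apobec1. Ifi27 changed by -1.96 and Apobec1 by -1.40. Ifitm1 changed by -1.96 ± 0.56 (adjusted p = 0.00629), and -1.54 without library 3012 (adjusted p = 0.0501) and -2.58 without library 3013. Genes of the Ifit, Oas and Ifitm families are similar in sequence, and the division of reads among them is uncertain.

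Many antiviral promoters carry the sequence that interferon-activated factors are known to bind. Stretches of 4 of them are shown, from the largest rises of the list whose promoter held a match before the annotated start. Oasl1, which rose by 5.87, held no match and is not shown. The letters are the gene's strand from 5′ to 3′ (RefSeq, GRCm38.p6), and capitals mark the core of the interferon-stimulated response element, searched on either strand as GAAA, any 2 bases, GAAA.
Rsad2 (chr12:26456543-26456592, minus strand): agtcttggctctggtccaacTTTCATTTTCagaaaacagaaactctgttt
Ifit1bl1 (chr19:34602043-34602092, minus strand): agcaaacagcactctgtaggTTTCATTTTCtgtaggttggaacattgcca
Ifit3b (chr19:34607749-34607832, plus strand): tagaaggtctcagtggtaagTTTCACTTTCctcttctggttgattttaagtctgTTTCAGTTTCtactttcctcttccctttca
Ifit1 (chr19:34640765-34640833, plus strand): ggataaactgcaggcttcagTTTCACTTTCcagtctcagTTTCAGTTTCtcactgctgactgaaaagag
The Rsad2 match lay 111 to 120 bases before the annotated start and the Ifit1bl1 match 95 to 104, and Ifit3b and Ifit1 each held 2 matches. Of the 44 effectors, 34 had a promoter window of 250 bases before to 50 after a start in the table, and 17 of those 34 genes held a match on either strand. By windows this was 19 of 43 (44.2%), against 1131 of all 32851 windows (3.44%). Along the response, 16.9% of windows of genes that rose by more than 4 on the log2 scale held the motif, 9.63% of those that rose by 2 to 4, 3.34% of those that rose by less, 2.76% of genes not called and 2.62% of genes that fell. These classes were formed after the values were seen. A match describes the sequence and is not evidence of binding.

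Interferon-induced GTPases, which attack the vacuoles of intracellular microbes, rose almost without exception: 19 of 20 were higher and 0 lower, with a median of 5.06. Gbp5 had 5224, 5974 and 6279 with PolyI:C and 16.7, 37.7 and 63.8 unstimulated, a change of 7.36 ± 0.53 (adjusted p = 3.17e-11). Gbp2 had 8760.0, 10013 and 10424 with PolyI:C and 53.5, 159 and 150.1 unstimulated, a change of 6.47 ± 0.33 (adjusted p = 7.56e-14). Igtp, an immunity-related GTPase, had 4612, 4285 and 4482 with PolyI:C and 310.3, 303 and 302 unstimulated, a change of 3.86 ± 0.12 (adjusted p = 1.81e-17). Unstimulated levels were lowest in library 3012 for Gbp5 and Gbp2, and no library crossed between groups. The exception was Gbp8, at 1.82 (0.71 without library 3012 and 2.44 without library 3013) and not called. These families contain near-identical copies, so the split of reads within them is uncertain.

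Proinflammatory cytokines rose in 14 of 18 tested genes and fell in 0, median 3.13. Tnf had 3933, 6276 and 6245 normalised counts with PolyI:C and 129, 81.3 and 72.5 unstimulated, a change of 5.86 ± 0.21 (adjusted p = 7.17e-17). Il1b, the secreted interleukin-1, had 13111, 29268 and 30729 with PolyI:C and 4712, 2831 and 3782 unstimulated, a change of 2.62 ± 0.34 (adjusted p = 6.76e-07). Il1a had 4933, 23385 and 22855 with PolyI:C and 14.2, 101 and 82.6 unstimulated, a change of 8.09 ± 0.85 (adjusted p = 2.89e-08), and 7.23 without library 3012 and 8.84 without library 3021. Library 3021 was the lowest PolyI:C library for all 3, by a factor of 1.5 or more, and still above every unstimulated one. Il12b, the shared chain of interleukins 12 and 23, was listed at 0 in all 3 unstimulated libraries and had 120.3, 710.5 and 742 with PolyI:C. Il27 and Ebi3, the 2 chains of interleukin-27, rose by 7.19 (6.31 without library 3013) and 2.89, and Il15 by 2.59. Csf3, the granulocyte growth factor G-CSF, had 972, 2115 and 2020.4 with PolyI:C and 8.74, 0 and 0.369 unstimulated, a change of 9.41 ± 0.62 (adjusted p = 6.49e-12), and 10.43 without library 3012 and 8.78 without library 3013. Lif overlapped between groups, at 1.93, 188 and 157 with PolyI:C and 0.892, 46.1 and 0 unstimulated, with a change of 3.31 ± 1.14 (adjusted p = 0.0218), and 2.69 without library 3012 (adjusted p = 0.1), 5.01 without library 3013, 2.23 without library 3014 (adjusted p = 0.152), 5.27 without library 3021, 2.27 without library 3022 (adjusted p = 0.149) and 2.40 without library 3023 (adjusted p = 0.134). Il23a, Csf1, Il33 and Osm were not called.

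Cytokines and decoys that restrain inflammation rose beside them, 9 of 13 higher and 2 lower. Il10, the main anti-inflammatory cytokine of macrophages, had 812, 804 and 816 with PolyI:C and 0, 0 and 0.738 unstimulated, a change of 9.40 ± 0.77 (adjusted p = 3.37e-10). Il19, of the same family, was listed at 0 in every unstimulated library and had 383, 1692 and 1676 with PolyI:C. The antagonist Il1rn is described above, Il18bp, which neutralises interleukin-18, rose by 2.99 and the TNF receptor gene Tnfrsf1b by 2.98. The receptor gene Il6ra had 447, 481 and 421 with PolyI:C and 1134, 1087 and 1021 unstimulated, a change of -1.26 ± 0.12 (adjusted p = 9.45e-09). The other gene that fell was Il13ra1, at -1.03 ± 0.29 (adjusted p = 0.00626), and -0.52 without library 3021 (adjusted p = 0.0786).

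Chemokines that attract monocytes and T cells rose, with 8 of 13 CC chemokines higher and 2 lower. Ccl3 and Ccl4, inflammatory proteins of macrophages, were among them. Ccl4 had 14235, 21349 and 21550.3 normalised counts with PolyI:C and 178, 101 and 108 unstimulated, a change of 7.22 ± 0.21 (adjusted p = 2.64e-18). Ccl3 had 24289.7, 37573 and 37079 with PolyI:C and 399.9, 198 and 263 unstimulated, a change of 6.87 ± 0.25 (adjusted p = 1.58e-16). Ccl2, the chief monocyte attractant, had 2275, 8683 and 8819 with PolyI:C and 20.5, 88.4 and 59.3 unstimulated, a change of 6.84 ± 0.74 (adjusted p = 4.28e-08), and 6.25 without library 3012 and 7.49 without library 3021. All 3 separated the groups. Among CXC and CX3C chemokines 8 of 14 rose and 2 fell. Cxcl10, an interferon-induced T cell attractant, had 14555, 25442 and 26140.4 with PolyI:C and 11.8, 80.99 and 45.7 unstimulated, a change of 9.18 ± 0.41 (adjusted p = 4.61e-15), and 8.43 without library 3012. Cxcl11, a ligand of the same receptor, had 1181, 1285 and 1506 with PolyI:C and 0, 5.42 and 0.396 unstimulated, a change of 9.31 ± 0.62 (adjusted p = 7.49e-12), and 10.12 without library 3013. Cxcl9, the third ligand, was higher in 3021 than in the other libraries, at 1647, 388 and 446 with PolyI:C and 32.01, 1.73 and 0.947 unstimulated, a change of 6.88 ± 0.93 (adjusted p = 1.46e-06), and 8.16 without library 3012, 6.12 without library 3014 and 6.22 without library 3021. The 3 genes encode ligands of CXCR3. The neutrophil attractants Cxcl1, Cxcl2 and Cxcl3 also rose. Cxcl3 was lowest in 3021 within the PolyI:C group, with 38.5, 636 and 622 with PolyI:C and 18.6, 22.3 and 25.2 unstimulated, a change of 3.45 ± 0.89 (adjusted p = 0.00289), and 4.78 without library 3021, 2.78 without library 3022 and 2.79 without library 3023. Cxcl1 rose by 3.38 (4.21 without library 3021) and Cxcl2 by 4.44. One of the 2 genes that fell was Cxcl14, at 86.2, 214 and 250.4 with PolyI:C and 860.4, 1129 and 1127 unstimulated, a change of -2.62 ± 0.29 (adjusted p = 8.15e-08).

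Of 19 receptors for chemoattractants, 7 rose and 3 fell, beside 21.2% higher and 19.9% lower among all genes. Fpr1 and Fpr2, the formyl-peptide receptors, rose by 4.39 and 4.24. Ccr7, the receptor that guides antigen-presenting cells to lymph nodes, had 51.9, 23.1 and 34.8 with PolyI:C and 0, 1.68 and 0 unstimulated, a change of 4.68 ± 0.90 (adjusted p = 0.000163). Cx3cr1, the receptor for the neuronal chemokine fractalkine and a defining gene of microglia, had 281, 403 and 382 with PolyI:C and 7929, 7859 and 7869 unstimulated, a change of -4.49 ± 0.19 (adjusted p = 2.97e-15). Of 7 tested genes that mark monocytes or neutrophils, 5 rose. S100a8 had 191, 289 and 309.9 with PolyI:C and 5.47, 21.9 and 18.8 unstimulated, while Ly6c2 and Camp were listed at 0 in every unstimulated library. The mean level of the list was 4.20 to 4.30 with PolyI:C and 1.90 to 2.24 without, while its summed share of normalised counts, held mostly by Csf3r, was 0.0310 to 0.0418% with PolyI:C and 0.0313 to 0.0481% without. Their part in the cytokine and chemokine results was not tested.

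Genes of the NF-κB system, the DNA-binding factors and the inhibitors that the pathway itself induces, rose in 19 of 24 cases and fell in 0, median 1.69. Traf1, an adaptor of TNF receptors, had 5068, 5787 and 5886 normalised counts with PolyI:C and 11.6, 30.9 and 55.7 unstimulated, a change of 7.62 ± 0.29 (adjusted p = 2.41e-16). Nfkbiz, a nuclear co-activator, had 3721, 3916 and 3833 with PolyI:C and 323, 217 and 240.1 unstimulated, a change of 3.89 ± 0.13 (adjusted p = 4.54e-17). Nfkbia, the inhibitor IκBα, had 6203, 7080.1 and 7262 with PolyI:C and 932, 932 and 904 unstimulated, a change of 2.89 ± 0.09 (adjusted p = 9.53e-18). All separated the groups, and the 3 PolyI:C libraries lay within 1.5-fold of each other. Tnfaip3 (A20), which removes ubiquitin chains from the pathway, rose by 4.04, Nfkb2 by 2.71 and Relb by 1.21, whereas Rela, the main DNA-binding subunit, changed by only 0.27 ± 0.11 (adjusted p = 0.0403), and 0.20 without library 3012 (adjusted p = 0.184), 0.22 without library 3022 (adjusted p = 0.163) and 0.27 without library 3023 (adjusted p = 0.0861) and reversed to -0.13 with quantile scaling. The κB motif was searched on either strand as GGGA, any base, TTTCC. It is shown in capitals in 2 promoters of the list (RefSeq, GRCm38.p6, 5′ to 3′ on the gene's strand). Both genes rose, and they were chosen because their windows held a match before the start. Traf1 and Tnfaip3, which rose more, had windows without a match.
Nfkbia (chr12:55492648-55492696, minus strand): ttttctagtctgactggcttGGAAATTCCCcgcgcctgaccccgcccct
Nfkb2 (chr19:46305685-46305734, plus strand): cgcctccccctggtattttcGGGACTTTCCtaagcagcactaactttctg
The motif was in 4 of 28 windows of the list (14.3%), from 3 of the 21 genes with a window, against 135 of all 32851 windows (0.411%).

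Genes for antigen presentation on MHC class I rose almost throughout. Of 18 genes for class I chains and peptide loading, 17 rose and 0 fell, median 2.05. H2-Q6, a non-classical class I chain, had 16044, 14595 and 15112 normalised counts with PolyI:C and 567, 789.5 and 642 unstimulated, a change of 4.53 ± 0.12 (adjusted p = 3.87e-19). The classical chains H2-K1 and H2-D1 rose by 1.70 and 1.00, B2m by 1.10, and Tap1, the peptide transporter, by 3.24. Class I genes share sequence, so these values are uncertain between members. The inducible proteasome subunits Psmb8, Psmb9 and Psmb10 rose by 2.34, 2.22 and 2.14, and 6 of 8 genes of that list rose. All 14 of 14 standard core subunits rose too, median 1.12. Psma6 had 2499, 2654 and 2789 with PolyI:C and 605, 816 and 692 unstimulated, a change of 1.92 ± 0.10 (adjusted p = 7.46e-14).

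MHC class II genes, which present to CD4+ T cells, did not follow. Of 13 tested, 3 rose and 6 fell, median -0.17, or 0.14 without library 3021 with 2 higher and 4 lower. H2-Ab1, a class II chain, rose, at 128, 332 and 378 with PolyI:C and 29.3, 25.99 and 16.04 unstimulated, a change of 3.40 ± 0.27 (adjusted p = 2.80e-10). H2-DMa, the peptide-exchange chain, had 1.73, 16.4 and 5.49 with PolyI:C and 135, 159 and 196 unstimulated, a change of -4.59 ± 0.45 (adjusted p = 9.62e-09), and -3.93 without library 3021 and -5.27 without library 3022. Ifi30, a thiol reductase of antigen processing, had 109, 127 and 129 with PolyI:C and 483, 827 and 716 unstimulated, a change of -2.43 ± 0.20 (adjusted p = 3.13e-10). These 3 genes each separated the groups. Ciita, the master activator of class II genes, was not called, at -0.07 ± 0.78 (adjusted p = 0.956). Of 17 costimulatory and checkpoint molecules 9 rose and 4 fell. Cd40 had 1242, 2187 and 2121 with PolyI:C and 26.5, 8.68 and 13.04 unstimulated, a change of 6.85 ± 0.43 (adjusted p = 3.35e-12). Cd274, encoding the checkpoint ligand PD-L1, had 5233, 8312 and 8090.3 with PolyI:C and 257, 262 and 352 unstimulated, a change of 4.61 ± 0.20 (adjusted p = 2.97e-15). Vsir, encoding the checkpoint protein VISTA, had 956, 939 and 1108 with PolyI:C and 5737, 5233 and 4949.7 unstimulated, a change of -2.41 ± 0.20 (adjusted p = 4.67e-10). The checkpoint genes Cd274 and Vsir thus went in opposite directions, each in all 3 libraries.

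Genes of programmed cell death and the inflammasome rose in 17 of 24 cases and fell in 4. Mlkl, which carries out necroptosis, had 1145, 1532 and 1393 with PolyI:C and 45.8, 36.7 and 31.4 unstimulated, a change of 5.13 ± 0.48 (adjusted p = 4.02e-09). Nlrp3, an inflammasome sensor, had 3502, 4966 and 5183 with PolyI:C and 458, 362 and 435 unstimulated, a change of 3.43 ± 0.27 (adjusted p = 1.59e-10). Casp4, which senses cytoplasmic LPS, rose by 3.32 and Casp1 by 2.29. Survival genes rose with them, Cflar by 2.19 and Bcl2a1d by 2.78, and the killer Bcl2l11 (BIM) had 166, 128 and 130.2 with PolyI:C and 766, 605 and 640.0 unstimulated, a change of -2.24 ± 0.21 (adjusted p = 3.52e-09).

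Enzymes known from activated macrophages rose steeply. Nos2, the inducible nitric oxide synthase, had 1865, 7905 and 8066 normalised counts with PolyI:C and 0, 10.8 and 6.47 unstimulated, a change of 10.11 ± 0.82 (adjusted p = 3.05e-10), and 9.03 without library 3012, 10.81 without library 3013 and 10.81 without library 3021. Acod1, which makes itaconate, had 17873, 25972 and 25419 with PolyI:C and 129, 90.8 and 171 unstimulated, a change of 7.48 ± 0.33 (adjusted p = 4.61e-15). Gch1, which supplies a cofactor of nitric oxide synthase, had 886, 1159.6 and 1297 with PolyI:C and 121, 72.8 and 100.2 unstimulated, a change of 3.50 ± 0.18 (adjusted p = 7.30e-14). Nos2 was lowest in library 3021 within the PolyI:C group, as for the cytokines. Of the list for nitric oxide, arginine and itaconate 6 of 10 rose and 1 fell. Arg1 was not called, at 2.17 (1.09 without library 3012, 2.77 without library 3014, 3.80 without library 3021, adjusted p = 0.00891, 1.43 without library 3022 and 1.27 without library 3023). In prostaglandin metabolism 6 genes rose and 7 fell of 14. The inducible pair that makes prostaglandin E2 rose: Ptgs2 had 17044, 27460.0 and 25154 with PolyI:C and 66.2, 349 and 102 unstimulated, a change of 7.41 ± 0.50 (adjusted p = 1.27e-11), and 8.10 without library 3013. Ptges had 12350.4, 20112 and 21741 with PolyI:C and 15.3, 108 and 37.3 unstimulated, a change of 8.75 ± 0.48 (adjusted p = 2.25e-13), and 8.09 without library 3012 and 9.46 without library 3013. The constitutive cyclooxygenase Ptgs1 fell, at 10.4, 57.8 and 87.6 with PolyI:C and 543, 1622 and 1198 unstimulated, a change of -4.71 ± 0.71 (adjusted p = 7.32e-06), and -3.82 without library 3021 and -5.30 without library 3023. The degrading enzyme Hpgd, given above, and the receptor gene Ptger4 (-2.21) fell as well, and so did the leukotriene genes Alox5 (-4.79, -5.49 without library 3021, -4.11 without library 3023) and Alox5ap (-2.83, -1.87 without library 3021).

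Matrix metalloproteinases and their inhibitors rose in 10 of 18 cases and fell in 4. Besides Mmp13, Mmp14, a membrane-bound activator of other metalloproteinases, had 6206, 6779.8 and 7114 with PolyI:C and 647, 822 and 754 unstimulated, a change of 3.18 ± 0.13 (adjusted p = 1.77e-15). Mmp12, the macrophage elastase, had 1154, 5753 and 5854 with PolyI:C and 299.6, 235 and 266 unstimulated, a change of 3.67 ± 0.47 (adjusted p = 5.78e-07), and 4.44 without library 3021. The inhibitor gene Timp2 had 289, 417 and 449.8 with PolyI:C and 1374, 2147 and 1805 unstimulated, a change of -2.20 ± 0.23 (adjusted p = 2.43e-08). Within the PolyI:C group Mmp12 and Mmp13 were lowest in library 3021 and Mmp14 was nearly level. Among complement and Fc receptor genes 9 of 17 rose and 5 fell. C3, the central complement protein, had 32681, 28389 and 29068 with PolyI:C and 6959, 9671 and 7482 unstimulated, a change of 1.91 ± 0.13 (adjusted p = 1.91e-11). Fcgr1, the high-affinity IgG receptor, had 13537, 14033 and 15013 with PolyI:C and 2391, 2512 and 2545 unstimulated, a change of 2.51 ± 0.09 (adjusted p = 4.54e-17). The C1q chains fell, with log2 changes of -1.25 for C1qa, -0.61 for C1qb and -1.34 for C1qc.

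The genes that mark homeostatic microglia fell almost as a block. Of 31 tested, 1 rose, 27 fell and 3 were not called, median -2.03. Their summed share of normalised counts was 0.337, 0.382 and 0.390% in libraries 3021, 3022 and 3023, against 1.65, 1.76 and 1.71% in 3012, 3013 and 3014. Gpr34, a lysophosphatidylserine receptor (chrX:13632089-13640858), had 7.21, 8.83 and 7.38 normalised counts with PolyI:C and 769, 469 and 740.3 unstimulated, a change of -6.20 ± 0.60 (adjusted p = 6.53e-09). Olfml3, a secreted protein of microglia, had 282, 276 and 257 with PolyI:C and 2849.7, 3862 and 3519 unstimulated, a change of -3.64 ± 0.13 (adjusted p = 6.64e-17). Trem2, a lipid receptor needed for phagocytosis, had 198, 476 and 439 with PolyI:C and 4870.1, 4634 and 4715 unstimulated, a change of -3.77 ± 0.25 (adjusted p = 7.16e-12). No library of either group crossed into the other for these genes. Sall1, a transcription factor that maintains microglial identity, had 84.9, 88.1 and 113 with PolyI:C and 594, 612 and 588 unstimulated, a change of -2.65 ± 0.18 (adjusted p = 9.10e-12). Tmem119 had 4.50, 19.3 and 27.6 with PolyI:C and 420.5, 677 and 581 unstimulated, a change of -5.22 ± 0.52 (adjusted p = 1.07e-08), and -4.51 without library 3021. P2ry12, the ADP receptor of process movement, had 39.6, 48.5 and 60.5 with PolyI:C and 301, 369 and 385 unstimulated, a change of -2.82 ± 0.49 (adjusted p = 5.37e-05). All 3 were lower in every PolyI:C library than in any unstimulated one. The TGF-β receptors Tgfbr1 (-2.41) and Tgfbr2 (-1.80) and the growth factor receptor Csf1r (-2.03), on which microglia depend, fell too. The single gene of the list that rose was Adora3, an adenosine receptor, at 1.59. The 15 markers shared by microglia and macrophages had median changes of -1.01, -0.97 and -0.94 in libraries 3021, 3022 and 3023 against the unstimulated mean. Cx3cr1, Csf1r and the C1q chains were among those that fell. Not all of that list did: Spi1 rose by 0.91 but was at 0.07 with quantile scaling (adjusted p = 0.721). Ptprc rose by 0.58 but reversed to -0.33 with quantile scaling, and Cd68 was not called. Genes of the disease-associated microglia state fell more often than they rose, 11 against 3 of 20, among them Apoe (-1.24) and Lpl (-2.85).

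Receptors for nucleotides and adenosine went in both directions, with 7 of 15 higher and 6 lower. Adora2b, a low-affinity adenosine receptor, had 444, 879 and 900.0 with PolyI:C and 20.8, 62.2 and 45.4 unstimulated, a change of 4.14 ± 0.35 (adjusted p = 7.13e-10). Cd38, an enzyme that consumes NAD, had 1062, 1419 and 1504 with PolyI:C and 10.8, 49.96 and 58.1 unstimulated, a change of 5.32 ± 0.38 (adjusted p = 3.67e-11), and 4.58 without library 3012. Entpd1 (CD39), which breaks down extracellular ATP, had 28.04, 56.2 and 99.3 with PolyI:C and 944, 1103 and 1126 unstimulated, a change of -4.26 ± 0.58 (adjusted p = 1.63e-06). Each separated the groups. Among 12 endocannabinoid genes 2 rose and 3 fell, near the 21.2% higher and 19.9% lower among all genes. Cnr2, which encodes cannabinoid receptor 2 (chr4:135895394-135920207), had 9.57, 7.32 and 16.2 with PolyI:C and 178, 230.0 and 233 unstimulated, a change of -4.22 ± 0.54 (adjusted p = 7.03e-07). Daglb, which makes the ligand 2-arachidonoylglycerol in microglia, had 184, 79.2 and 67.4 with PolyI:C and 1207, 1138 and 898 unstimulated, a change of -3.42 ± 0.27 (adjusted p = 1.71e-10). Gpr18, an orphan receptor that has been linked to cannabinoids, had 826, 742 and 712 with PolyI:C and 31.7, 10.1 and 36.2 unstimulated, a change of 5.00 ± 0.33 (adjusted p = 7.29e-12). Cnr2 and Daglb were thus lower and Gpr18 higher in every PolyI:C library. Of 18 trophic factors 2 rose and 6 fell, beside 21.2% higher and 19.9% lower among all genes. Igf1 was at -1.45 and the TAM receptor ligands Gas6 and Pros1 were at -4.71 and -3.05.

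Cholesterol synthesis genes fell almost throughout. Of 23 genes, 0 rose and 21 fell, median -2.10. Sqle, squalene epoxidase, had 28.01, 14.7 and 25.5 normalised counts with PolyI:C and 391, 341 and 315 unstimulated, a change of -3.93 ± 0.23 (adjusted p = 8.32e-13). Cyp51, lanosterol demethylase, had 57.9, 44.9 and 60.1 with PolyI:C and 654, 405 and 533 unstimulated, a change of -3.25 ± 0.34 (adjusted p = 2.16e-08). Hmgcs1, an early enzyme, had 359.8, 317 and 256 with PolyI:C and 724, 613 and 607 unstimulated, a change of -1.07 ± 0.16 (adjusted p = 6.74e-06). The groups did not overlap for the 3. The one promoter of this list that held TCACNCCAC, a sterol regulatory element, was that of Hmgcs1 (RefSeq, GRCm38.p6, 5′ to 3′), shown with the motif in capitals.
Hmgcs1 (chr13:119690194-119690242, plus strand): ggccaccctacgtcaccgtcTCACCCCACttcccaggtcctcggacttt
The motif was in 1 of 19 windows of the list (5.26%), against 408 of all 32851 (1.24%), so little can be read from it. In the opposite direction, Ch25h, which makes the antiviral oxysterol 25-hydroxycholesterol, had 7311, 16291 and 16063 with PolyI:C and 39.3, 82.4 and 90.01 unstimulated, a change of 7.53 ± 0.42 (adjusted p = 3.99e-13). The cholesterol exporter Abca1 (-0.84) and the fatty acid genes Fasn (-3.25) and Fads1 (-4.16) fell.

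Energy metabolism genes divided by pathway. Of 20 glycolytic genes 19 rose and 1 fell, median 1.50. Pfkfb3, which speeds up glycolysis, had 7937, 8713 and 8762 with PolyI:C and 981, 949 and 1024 unstimulated, a change of 3.10 ± 0.18 (adjusted p = 5.36e-13). Slc2a1, the glucose transporter GLUT1, had 2588, 5384 and 5275 with PolyI:C and 751, 699.8 and 840.1 unstimulated, a change of 2.46 ± 0.22 (adjusted p = 2.64e-09). Ldha, which makes lactate, had 8836, 18802 and 19654 with PolyI:C and 3087, 4282 and 3624 unstimulated, a change of 2.03 ± 0.24 (adjusted p = 1.84e-07). For Slc2a1 and Ldha the PolyI:C library 3021 was well below 3022 and 3023. The gene that fell, the neuronal glucose transporter gene Slc2a3, overlapped between groups, with a change of -2.42 ± 0.95 (adjusted p = 0.0451), and -2.34 without library 3012 (adjusted p = 0.0966), -1.92 without library 3013 (adjusted p = 0.166), -0.64 without library 3021 (adjusted p = 0.501) and -3.67 without library 3023. Nuclear-encoded subunits of oxidative phosphorylation were mostly not called: 4 of 42 rose and 4 fell. Of 13 mitochondrially encoded subunits 0 rose and 10 fell, median -1.26. The transcript mt-Cytb had 4265, 4679 and 4899 with PolyI:C and 14134, 14705 and 13842 unstimulated, a change of -1.63 ± 0.14 (adjusted p = 5.47e-10). In the tricarboxylic acid cycle 2 of 18 rose and 7 fell. Both NADP-dependent isocitrate dehydrogenases fell, Idh1 at 116, 109 and 86.6 with PolyI:C and 1233, 1298 and 1399 unstimulated, a change of -3.65 ± 0.15 (adjusted p = 8.56e-16), and Idh2 (-3.09).

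Genes of the stress pathways mostly rose. Of 19 genes of the unfolded protein and heat shock responses 15 rose and 2 fell, and of 19 genes of the integrated stress response and amino acid supply 14 rose and 1 fell. Hspa5, the endoplasmic reticulum chaperone BiP, had 7458, 10098 and 9513 with PolyI:C and 2075, 2777 and 2277 unstimulated, a change of 1.92 ± 0.12 (adjusted p = 1.79e-12). Atf4, whose translation PKR and related kinases favour, had 2800.3, 2913 and 3015 with PolyI:C and 1009.6, 1068 and 889 unstimulated, a change of 1.56 ± 0.11 (adjusted p = 1.89e-11). Mthfd2, a mitochondrial folate enzyme, had 809.6, 945 and 856 with PolyI:C and 142, 116 and 125 unstimulated, a change of 2.76 ± 0.13 (adjusted p = 1.34e-14). Among cell cycle and replication genes 3 of 32 rose and 7 fell, beside 21.2% higher and 19.9% lower among all genes. The share that fell was thus near that of all genes. Mki67, a proliferation marker, was not called at -1.55 (-2.37 without library 3012, adjusted p = 0.00491). The inhibitor Cdkn1a (p21) rose by 1.18 and Mxd1, a MYC antagonist, by 4.10. Ribosomal protein genes fell slightly, 21 of 32 against 1 higher, median -0.45, and -1.16 with quantile scaling.

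Lysosomal genes fell more often than they rose, 17 against 5 of 30. Lipa, the lysosomal lipase, had 762, 932 and 946 with PolyI:C and 6682, 4690.5 and 5884 unstimulated, a change of -2.70 ± 0.11 (adjusted p = 1.64e-15). Hexa, a hydrolase of gangliosides, had 878, 1382 and 1426 with PolyI:C and 5852, 6543 and 6219 unstimulated, a change of -2.37 ± 0.14 (adjusted p = 5.56e-13). Ctsz, a cathepsin, went the other way, at 15127, 18672 and 18818 with PolyI:C and 7659, 9557 and 9137 unstimulated, a change of 1.00 ± 0.13 (adjusted p = 7.14e-07). With quantile scaling Ctsz was not called, at 0.05 (adjusted p = 0.718). Each of the 3 separated the groups. Of 15 iron genes 8 rose and 5 fell. Lcn2, which binds bacterial iron carriers, had 8454, 9703 and 10163 with PolyI:C and 1.36, 41.4 and 11.5 unstimulated, a change of 9.77 ± 0.59 (adjusted p = 1.26e-12), and 8.67 without library 3012 and 10.76 without library 3013. Fth1, ferritin heavy chain, had 189397, 213304 and 232556 with PolyI:C and 64564, 56719.5 and 61827 unstimulated, a change of 1.79 ± 0.13 (adjusted p = 2.92e-11). Slc40a1, the iron exporter ferroportin, had 8.27, 22.1 and 9.53 with PolyI:C and 371, 205 and 231 unstimulated, a change of -4.32 ± 0.59 (adjusted p = 1.60e-06). The groups did not overlap for these 3 either. In oxidant metabolism 8 of 18 rose and 6 fell, and 4 rose and 9 fell with quantile scaling. Sod2, the mitochondrial superoxide dismutase, rose by 4.44, and Gpx1 (-2.08), a glutathione peroxidase, fell.

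Library 3021, with the lowest glial markers of its group, matched the other PolyI:C libraries in the antiviral lists and was lower in several inflammatory ones. Taken library by library against the unstimulated mean, the median change of antiviral effectors was 3.004 in 3021, 3.07 in 3022 and 3.14 in 3023, and that of NF-κB genes was 1.69, 1.70 and 1.71. For CXC and CX3C chemokines the medians were 0.54, 3.08 and 3.09, for metalloproteinases 1.71, 3.64 and 3.67, for nitric oxide and arginine genes 1.73, 3.56 and 3.62, and for glycolysis 0.83, 1.91 and 1.87. Homeostatic genes were lower still in 3021, at -2.78, against -2.05 and -2.01. Among the 6032 called genes, 3021 lay more than 1 log2 unit below both other PolyI:C libraries in 553 and above both in 214. The same counts were 56 and 124 for 3022, and 59 and 139 for 3023. Astrocyte markers differed in the same direction, with medians of -3.60 in 3021, 0.31 in 3022 and 0.27 in 3023, and their part in these differences was not tested. Without 3021 the response had 5643 called genes, 3033 higher and 2610 lower. Without both 3021 and 3012, 5138 genes were called. With all 6 unstimulated wild-type libraries as the control, several calls given above ended: those of Mmp12 (1.26, adjusted p = 0.294), H2-Ab1 (1.40, adjusted p = 0.134), Ldha (1.00, adjusted p = 0.0561), Hmgcs1 (-0.51, adjusted p = 0.0948), C1qb (-0.23, adjusted p = 0.338), Ifitm1 (-0.80, adjusted p = 0.321), Lif (1.42, adjusted p = 0.351) and Tmem173 (-0.52, adjusted p = 0.0549).

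Set beside LPS with interferon-γ (100 ng/ml and 20 ng/ml), agonists of TLR4 and of the interferon-γ receptor, PolyI:C differed in 1358 genes (9.26% of those tested). PolyI:C was higher for 573 (3.91%) and lower for 785 (5.35%), and past a log2 difference of 2 the counts were 40 and 202. Il10 had 812, 804 and 816 normalised counts with PolyI:C and 53.3, 43.9 and 76.5 with LPS and interferon-γ, a difference of 3.82 ± 0.77 (adjusted p = 0.00146). Il19 had 383, 1692 and 1676 with PolyI:C and 31.6, 43.2 and 33.1 with LPS and interferon-γ, a difference of 4.81 ± 0.80 (adjusted p = 0.000188), and 5.52 without library 3021. Ifit1bl1 had 8666, 9574 and 9913 with PolyI:C and 727, 692 and 1121 with LPS and interferon-γ, a difference of 3.50 ± 0.78 (adjusted p = 0.00416). These were among the genes with the largest differences in favour of PolyI:C. Each PolyI:C library exceeded each of the other group, a condition of the rule that named genes by size of difference. Slfn4 was also higher with PolyI:C, with a difference of 2.98 ± 0.86 (adjusted p = 0.0276), and 2.83 without library 3015 (adjusted p = 0.0969), 3.03 without library 3016 (adjusted p = 0.0716), 3.08 without library 3017 (adjusted p = 0.0625), 2.68 without library 3021 (adjusted p = 0.109) and 3.13 without library 3022 (adjusted p = 0.0518). In the other direction stood Cxcl9, a textbook interferon-γ target, and Clic5 and Serpina3g. Cxcl9 had 1647, 388 and 446 with PolyI:C and 27510.2, 26728 and 27450.5 with LPS and interferon-γ, a difference of -5.37 ± 0.93 (adjusted p = 0.000312), and -6.03 without library 3021. Clic5, a chloride channel family gene, had 16.5, 40.4 and 39.1 with PolyI:C and 1698, 1832 and 2168 with LPS and interferon-γ, a difference of -5.94 ± 0.64 (adjusted p = 6.03e-07). Serpina3g, a protease inhibitor, had 1.75, 20.7 and 11.9 with PolyI:C and 1331, 1323 and 1565 with LPS and interferon-γ, a difference of -7.26 ± 0.63 (adjusted p = 2.35e-08), and -6.39 without library 3021 and -7.88 without library 3022. By list, interferon-induced GTPases were lower with PolyI:C in 15 of 20 (median -1.75) and class II genes in 8 of 13 (median -1.42), and 0 of either list were higher. Antiviral effectors were higher in 10 and lower in 3 of 44, and mitochondrially encoded transcripts lower in 8 of 13. Ifnb1 had 0, 11.6 and 5.80 with PolyI:C and 31.7, 32.6 and 39.5 with LPS and interferon-γ, a difference of -3.01 ± 0.92 (adjusted p = 0.0406), and -3.07 without library 3015 (adjusted p = 0.0979), -3.05 without library 3016 (adjusted p = 0.1), -2.91 without library 3017 (adjusted p = 0.118), -1.94 without library 3021 (adjusted p = 0.281), -3.76 without library 3022 and -3.32 without library 3023 (adjusted p = 0.0507).

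Against CpG (1 nmol/ml), the TLR9 agonist, PolyI:C differed in 4412 genes (30.1%), of which it was higher in 2578 (17.6%) and lower in 1834 (12.5%). Past a log2 difference of 2 the counts were 904 and 253. Antiviral genes differed almost throughout: 41 of 44 effectors were higher with PolyI:C and 1 lower, median 3.60, and all 20 GTPases were higher, median 4.97. Rsad2 had 23688, 34273 and 34273 normalised counts with PolyI:C, against 57.5, 138 and 159 with CpG, a difference of 8.11 ± 0.28 (adjusted p = 6.91e-17). Tnfsf10, the death ligand TRAIL, had 749, 845 and 952 with PolyI:C, against 0, 4.53 and 1.56 with CpG, a difference of 8.45 ± 0.46 (adjusted p = 3.62e-13), and 7.81 without library 3018 and 9.05 without library 3019. The CpG values of Rsad2 lay within or below the range of its unstimulated values. Inflammatory lists also leaned towards PolyI:C: 12 of 18 proinflammatory cytokines and 14 of 24 NF-κB genes were higher with PolyI:C. Class II genes were higher in 6 of 13. CpG gave the higher level of Marco, a scavenger receptor, at 995, 1059 and 1054 with PolyI:C, against 11726, 8941 and 8192 with CpG, a difference of -3.20 ± 0.19 (adjusted p = 1.27e-12). Slc13a3, a dicarboxylate transporter, had 523, 276 and 359 with PolyI:C, against 22788, 8585 and 9112 with CpG, a difference of -5.02 ± 0.50 (adjusted p = 2.70e-08). Igfbp4, an IGF-binding protein, had 301, 223 and 247 with PolyI:C, against 4282, 2103 and 2358 with CpG, a difference of -3.44 ± 0.24 (adjusted p = 3.68e-11). All 3 were higher with CpG in every library, and the rule that named genes by size of difference admitted only such genes. Cholesterol synthesis genes were lower with PolyI:C in 13 of 23, median -0.98, and 0 were higher. These comparisons share the PolyI:C libraries with each other and with the response itself. With quantile scaling the CpG comparison had 1985 genes higher and 2268 lower, and the median of all genes shifted by -0.15.

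**Figure D4:**
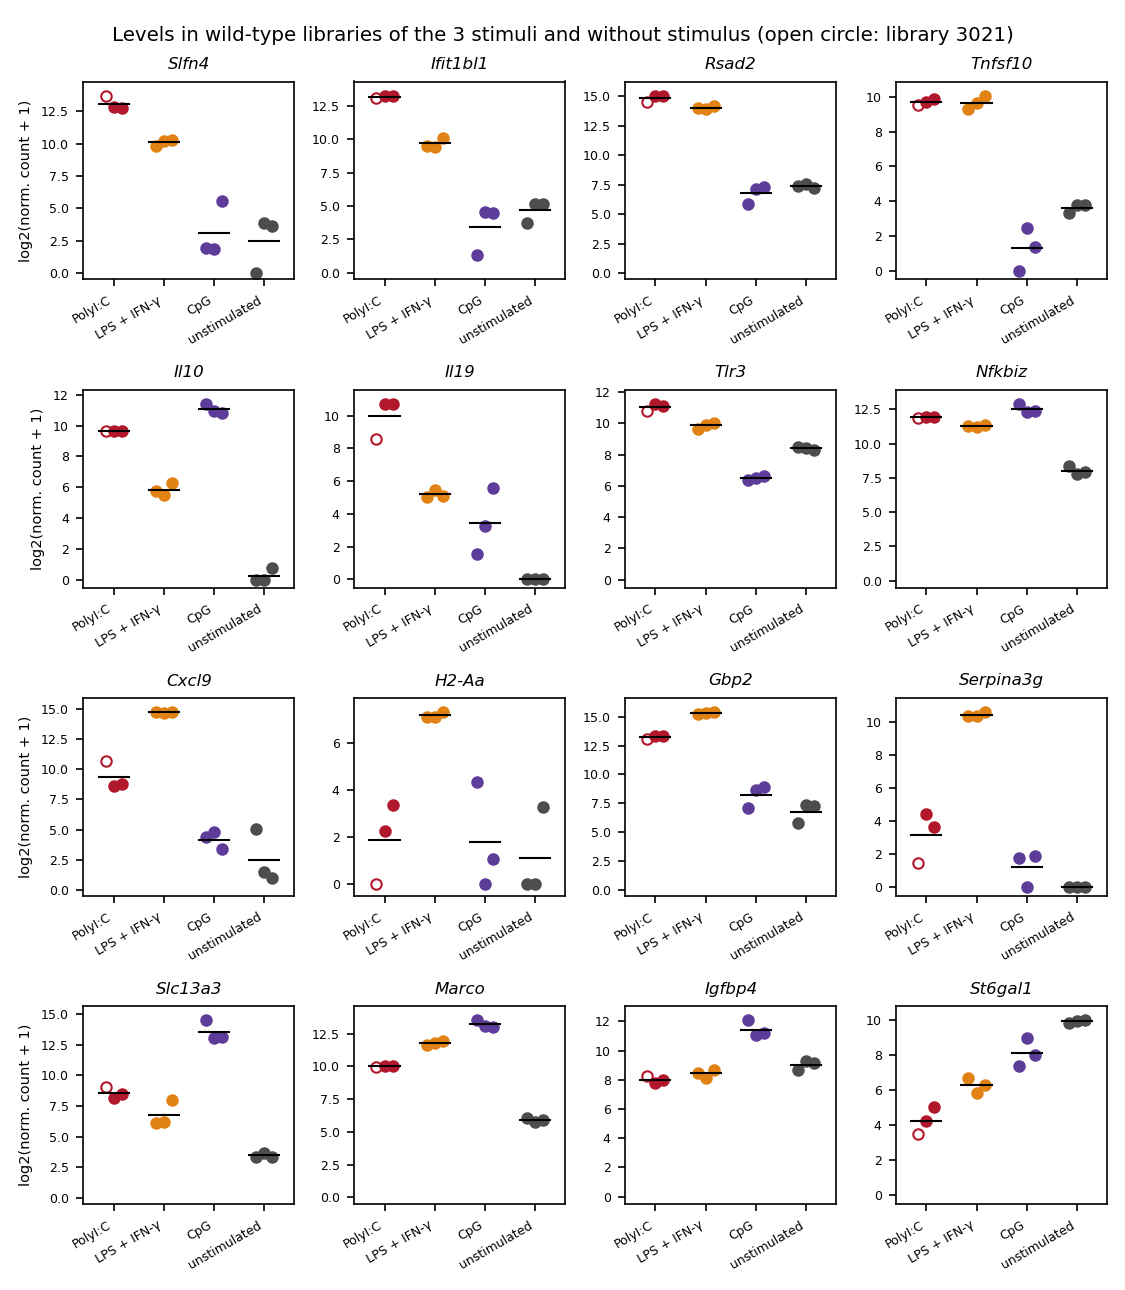
Levels, as log2(normalised count + 1), of 16 genes in wild-type libraries given PolyI:C, LPS with interferon-γ, CpG or nothing, 3 libraries each, from left to right. Rsad2 is near its unstimulated level with CpG, Cxcl9 and Gbp2 are highest with LPS and interferon-γ, and Slc13a3 and Marco with CpG.

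In the CB2-/- libraries, a strain made to lack the cannabinoid receptor Cnr2, the same 16 h of PolyI:C gave fewer calls. Cnr2 was still counted there, at 329, 412 and 368 normalised counts with PolyI:C and 317, 411 and 454 unstimulated, so the genotype rests on the labels. Against their own unstimulated libraries 1254 genes were called (8.55%), 750 higher (5.11%) and 504 lower (3.44%), or 678 higher and 787 lower with quantile scaling. Of the 3108 genes that rose in wild type, 599 also rose in CB2-/- libraries, which is 19.3% of the wild-type list and 79.9% of the CB2-/- list. The difference between the responses, wild type minus CB2-/-, was itself called for 3636 genes (24.8%). Irf7 rose by 3.47 in wild type and by 0.75 in CB2-/- libraries, a difference of 2.72 ± 0.13 (adjusted p = 3.31e-13). Tlr3 rose by 2.64 in wild type and by 1.03 in CB2-/- libraries, a difference of 1.60 ± 0.30 (adjusted p = 0.000267). Antiviral effectors rose in 32 of 44 in CB2-/- libraries, median 0.94, and homeostatic genes fell in 11 of 31. CB2-/- PolyI:C library 2058 stood apart from 2057 and 2059, with 54.3% of normalised counts in its top 10 genes against 9.34% and 10.5%. Its summed normalised counts were 1.415e+07, against 6764330 and 6961811. Antiviral effectors took 0.821% of that larger sum and 1.68% in both others, so the share does not show a weaker antiviral response in 2058. Without 2058 the difference between the responses was called for 3298 genes. All CB2-/- libraries come from another number series than the wild-type ones used here, so genotype and number series cannot be told apart.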

How the data were processed

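RNA was sequenced from all 27 libraries by 1 of 2 protocols, per the labels' protocols, and the sources used here do not say which library had which. The main values are normalised counts per gene, deposited by the authors as a signal that is never negative and is not whole. CASAVA 1.8, kallisto and DESeq2 are named without roles in the submitters' processing notes, and the genome build is not given in the sources used here; whole reads could not be recovered, so no count model was used. The authors also deposited log2 values after a batch correction whose batches are not stated, and these served only as an alternative. Strand was not stated, so a gene and its antisense partner cannot be told apart.

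Genes that reached a normalised count of 10 in 3 or more of the 27 libraries entered the test, made with limma 3.58.1 (R 4.3.3) on log2(value + 1), in 1 fit of all libraries with the unstimulated wild-type libraries 2186 to 2188 as a group of their own, with a mean-variance trend, two-sided p-values and Benjamini-Hochberg adjustment over 14668 genes. Calls were made where the adjusted p was under 0.05. An exact permutation test of 3 against 3 libraries cannot go below p = 0.1. The fit was also run on simulated counts with a fixed spread and few changed genes, so that run does not show how it performs on data like these. Replicate numbers follow accession order only. Positions are those of GENCODE M21 on GRCm38, matched by gene ID for 23933 of 23995 genes, and promoters those of RefSeq on GRCm38.p6. All value columns used were mapped to a sample by their header. Figures were drawn with Python 3.11.15 and matplotlib 3.10.9.

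The gene lists, markers and members were chosen with earlier results of these data known, and lists are described by counts and medians without a set test. Genes were named by rule: the 15 highest and 15 lowest changes and the 8 highest and 8 lowest moderated t among called genes without overlap and with a mean that reached 100 in the group with more, the 8 highest and 8 lowest per pair of stimuli, up to 4 genes per list, and a fixed panel of 18. Other members were named after their values were seen, and some genes that the rule named are not reported here. Alternatives covered the pseudocount, the filter, the scaling, the libraries fitted, library weights, the variance model, a fold threshold, the batch-corrected table, marker content and each library left out.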

Additional observations from a re-analysis of the deposited data

Results flagged for a closer look

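The PolyI:C response differed between wild-type and CB2-/- libraries for 3636 genes, tested as wild type minus CB2-/- in the same limma fit with adjustment over all genes (24.8% of those tested). Of the fixed panel of 18 genes, 13 were called. The rise was larger in wild type for Il6, by 8.29 on the log2 scale (adjusted p = 3.84e-07), with log2 fold changes of 10.73 in wild type and 2.44 in CB2-/- libraries, and by 9.04 without library 3021. The difference was 8.43 for Il10 (9.24 without library 2048, 7.77 without 2049, 7.13 without 2057 and 9.497 without 2059). For Nos2 it was 7.71 (6.64 without library 3012, 8.41 without 3013 and 8.41 without 3021). It was 6.18 for Cxcl10 (5.42 without library 3012), 5.63 for Ptgs2 (6.32 without library 3013), 4.72 for Tnf, 2.72 for Irf7, 2.12 for Ccl5, 1.60 for Tlr3 and 0.60 for Ticam1. Homeostatic genes fell further in wild type, with a difference of -4.37 for Tmem119 (-3.66 without library 3021) and -2.05 for P2ry12. Cnr2 changed by -4.22 in wild type and was at -0.08 in CB2-/- libraries, a difference of -4.13 (adjusted p = 0.000246). Irf3, Ifnb1, Il1b, Gfap and Col1a1 were not called, although Il1b was without library 3021, at 1.37 (adjusted p = 0.0266). Ticam1 and P2ry12 were closest to the threshold, with adjusted p of 0.0305 and 0.0342. Leaving out any 1 of libraries 3012, 3013, 3022, 3023, 2050 and 2057 ended the call of Ticam1, at 0.52 to 0.59. Leaving out any 1 of libraries 3013, 3014, 3021, 3022, 2048, 2049, 2050, 2057 and 2058 ended that of P2ry12, at -2.08 to -1.83, and so did quantile scaling, at -1.86. These values by gene were chosen after seeing the data. Leaving out each of the 12 libraries in turn gave 3195 to 3709 genes. Genotype and the number series of the libraries cannot be told apart, and Cnr2 reads were present in the CB2-/- libraries.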

How the results depend on the processing

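The 6032 genes called for PolyI:C against unstimulated stayed within 1.5-fold under every alternative run (4697 to 8080) except a test against a log2 fold change of 1, which called 1783, and leaving out each library gave 5460 to 5643. That fold test called 93 genes against LPS with interferon-γ, 798 against CpG, 18 for the CB2-/- response and 680 for the difference between the responses. The 1358 genes called against LPS with interferon-γ became 752 in a fit of 12 libraries, 2755 with library weights and 2187 with the authors' batch-corrected table, and 943 to 1249 without 1 library. The 4412 against CpG became 2022 in a fit of the 2 groups only, and 3837 to 4540 without 1 library. The 1254 of the CB2-/- response became 2040 with library weights, 2250 with the batch-corrected table and 805 to 1041 without 1 library. The 3636 responses that differed became 5528 with library weights and 3195 to 3709 without 1 library, alternatives chosen after seeing the data. Fewer libraries in a fit leave fewer residual degrees of freedom; the cause of the other shifts was not tested. With quantile scaling the calls against CpG split into 1985 higher and 2268 lower, and those of the CB2-/- response into 678 and 787. Of single genes, Lamp2 (-0.15), Atp5b (-0.24), Grn (-0.57), Ptprc (-0.33), Rela (-0.13) and Tlr7 (-0.22) reversed with quantile scaling, Irf3 (-0.30) with library weights and Abcg1 (-0.61) with all 6 unstimulated libraries. Over all alternatives, 351 values of single genes lost the call and 41 gained it, and 45 values of 13 genes changed sign without being called under either setting. No paired analysis was possible because replicate numbers follow accession order and pair no libraries. edgeR and DESeq2 were not run, since whole reads could not be recovered. Low genes limit the fold changes, and intervals from depth were not computed because read totals are estimates.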

Other observations

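Long non-coding RNA genes also responded to PolyI:C. Of 945 tested, 163 rose and 107 fell (28.6% called, beside 43.5% of protein-coding genes). Mir155hg, the host gene of the inflammatory microRNA miR-155, had 644, 451 and 452 normalised counts with PolyI:C and 12.02, 0 and 2.95 unstimulated, a log2 fold change of 7.10 ± 0.64 (adjusted p = 2.10e-09), and 8.001 without library 3012 and 6.15 without library 3013. Ptgs2os2, transcribed next to Ptgs2, had 236, 425 and 487 with PolyI:C and 3.28, 6.72 and 1.84 unstimulated, a change of 6.33 ± 0.91 (adjusted p = 3.77e-06). AW112010, a transcript known from activated immune cells, had 2027, 2759 and 2826 with PolyI:C and 96.1, 203 and 159.7 unstimulated, a change of 4.09 ± 0.26 (adjusted p = 4.06e-12). All 3 separated the groups completely. Neat1, the scaffold of nuclear paraspeckles, had 3316, 1255 and 1227 with PolyI:C and 6573, 1936 and 5682 unstimulated, a change of -1.27 ± 0.32 (adjusted p = 0.00258). The groups overlapped, since library 3013 was low among the unstimulated ones. In a limma fit of the libraries of the 2 groups only, Neat1 was not called (adjusted p = 0.136). Gas5, a host of small nucleolar RNAs, had 201, 223 and 259 with PolyI:C and 437, 502 and 486 unstimulated, a change of -1.06 ± 0.18 (adjusted p = 3.01e-05). Firre, an X-linked non-coding RNA, had 76.4, 32.3 and 32.1 with PolyI:C and 420.3, 115 and 309 unstimulated, a change of -2.49 ± 0.45 (adjusted p = 7.10e-05). These genes were named after their values were seen, and without strand information reads from overlapping genes on the other strand cannot be told apart.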
